A study of Mus musculus with 7 samples.

Results

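The array carried 2477 probes for RefSeq transcripts whose accession begins with NR_, the class that RefSeq uses for curated RNAs that are not translated. The 14 probes of 6 imprinted non-coding loci were left out, and the remaining 2463 of 56605 non-control probes are described here. They represent 2334 accessions, and 2393 of the probes matched 2205 gene symbols in a RefSeq gene table. The other 70 probes are called by their accession. RNA came from MIN6 cells, a clonal mouse line of insulin-secreting pancreatic beta cells. The vehicle group (3 arrays) received phosphate-buffered saline and the MPE group (4 arrays) received a polysaccharide extract of Maidong, both for 3 days. MPE concentrations up to 50 μg/mL are listed for the cultures, without saying which was used for the arrays. Both groups are of 1 cell line, and the labels do not say whether replicates were separate cultures, so each p-value is set against replicate variation that could be purely technical.

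Non-coding RNAs are a mixed family. Small nuclear and small nucleolar RNAs are structured RNAs that splice pre-mRNA or guide the chemical modification of other RNAs, and many small nucleolar RNAs are cut from the introns of spliced host transcripts. MicroRNAs are cut from hairpins inside longer host transcripts and pair with messenger RNAs through a seed near their 5′ end. Antisense transcripts run opposite to, or start beside, a neighbouring gene. Transcribed pseudogenes are copies of coding genes that no longer encode a full protein. Some long non-coding RNAs act in the nucleus, such as Xist in X inactivation and Neat1 in nuclear bodies.

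No probe stood for a microRNA gene itself, so microRNAs entered only through their hosts. Of 2205 named NR_ genes, 1546 had a strand in the RefSeq promoter table (GRCm38.p6), and 21 of these enclosed a microRNA hairpin on the same strand. Probes of 10 of the 21 hosts were detected. The mature microRNAs of D7Ertd143e are shown because its probe had the smallest p-value among NR_ probes measured above background on all 7 arrays. They belong to a cluster known from embryonic stem cells. Capitals mark the seed, bases 2 to 8. On the 3′ arm, miR-294-3p and miR-295-3p shared their whole seed, and miR-291b-3p shared it except for the last base.
mmu-miR-291b-3p: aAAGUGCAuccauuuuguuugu
mmu-miR-294-3p: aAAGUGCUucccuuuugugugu
mmu-miR-295-3p: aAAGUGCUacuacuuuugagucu
On the 5′ arm, miR-292a-5p and miR-293-5p shared a seed, and the first 6 seed bases were common to these and to miR-294-5p and miR-295-5p.
mmu-miR-292a-5p: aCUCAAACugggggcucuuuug
mmu-miR-293-5p: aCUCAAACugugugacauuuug
mmu-miR-294-5p: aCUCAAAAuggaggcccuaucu
mmu-miR-295-5p: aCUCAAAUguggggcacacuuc

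Another detected host, Mirc35hg, encloses the sensory-organ cluster of miR-182, miR-96 and miR-183. Its 5′ arms are shown because they are alike but not identical in the seed, so that 1 host carries 3 seeds.
mmu-miR-182-5p: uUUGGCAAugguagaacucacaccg
mmu-miR-96-5p: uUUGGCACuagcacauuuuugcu
mmu-miR-183-5p: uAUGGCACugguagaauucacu
The broadly expressed microRNAs of 3 further detected hosts, Mir22hg, Dleu2 and E130102H24Rik, had unrelated seeds.
mmu-miR-22-3p: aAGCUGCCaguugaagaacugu
mmu-miR-16-5p: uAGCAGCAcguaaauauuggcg
mmu-miR-101a-3p: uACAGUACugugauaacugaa
The host A230057D06Rik held 7 hairpins of the miR-344 family, 4 of whose 5′ arms shared 1 seed. The array measured the hosts and not these mature microRNAs.

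All 16 beta-cell markers listed were well above background on every array, among them Ins1, Ins2, Pdx1 and Mafa. The hormone genes of other islet cells, Gcg, Sst, Ppy and Ghrl, were also well above background on every array, while Hhex was so on none. Of 7 exocrine and duct markers 5 were not well above background on any array, and the list's summed log2 level ran from -2.84 to -2.58 with vehicle and from -2.72 to 0.30 with MPE. Its measured member on all arrays was Cel, at 1.63 above vehicle with MPE (unadjusted p = 0.024 by limma). Of 10 stromal, endothelial and immune markers 3 were above background on all arrays. The log2 of that list's summed signal ran from 4.22 to 4.58 with vehicle and from 4.07 to 4.20 with MPE. These 3 were Itgam, a myeloid integrin gene at a level of 4.07, with a difference of -0.35 (unadjusted p = 0.0067 by limma), and Cd68 and Cd3e, with differences of 0.10 and 0.04. Their part in the results on non-coding RNAs was not tested. All arrays lay on 1 slide, vehicle in row 1 and MPE in row 2, so treatment and slide row cannot be told apart.

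Most NR_ probes gave no signal well above background in MIN6 cells. A probe was called detected when the scanner software flagged it well above background on at least 3 of the 7 arrays. This held for 771 of 2463 probes (31.3%), or 713 genes, against 28166 of 54128 other non-control probes (52.0%). Probes were mostly either on or off, since 662 NR_ probes were above background on all 7 arrays and 1399 on none. Only 41 passed on exactly 3 arrays, just inside the rule, and 51 on exactly 2, just outside it.

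The classes differed widely in detected share. Small nucleolar RNA host genes, the Snhg genes and their like, were detected at 15 of 16 probes (93.8%). Other small structured RNAs followed at 23 of 28 probes (82.1%). Non-coding transcripts of protein-coding genes reached 54.9% (28 of 51), other named long non-coding RNAs 45.7% (53 of 116), microRNA host genes 44.4% (4 of 9) and pseudogenes 42.8% (122 of 285). The class of other named long non-coding RNAs takes all remaining symbols, among them the ribosomal RNA Rn28s1 and the short repetitive RNA Rn4.5s. Antisense and opposite-strand genes reached 32.9% (52 of 158). Transcripts under provisional names, the bulk of the set, were detected least, at 25.1% (435 of 1730), and accessions without a symbol at 55.7% (39 of 70). Probes of a gene are not independent and no test was made between classes.

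**Figure D1:**
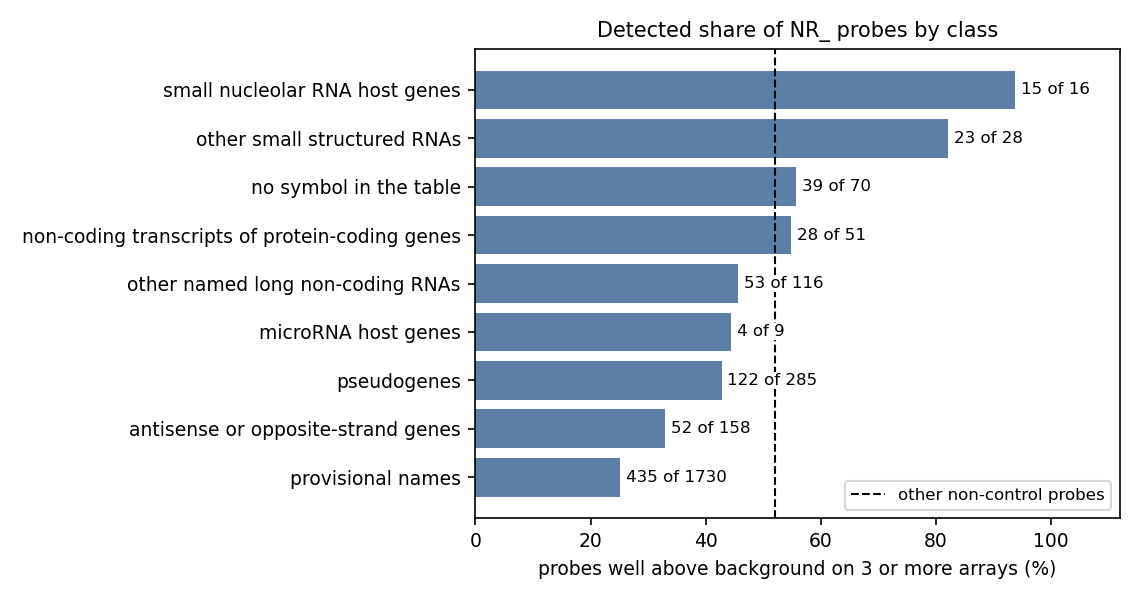
Bars give the percentage of probes in each class that were well above background on 3 or more of 7 arrays, with the counts beside them, and the dashed line marks the 52.0% of other non-control probes. The bars run from 25.1% for provisional names to 93.8% for small nucleolar RNA host genes.

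Detected NR_ genes also differed from the others in their promoters, which the detection rule did not use. In the RefSeq windows of 250 bases before to 50 after the start (GRCm38.p6), the median number of CG dinucleotides was 16 over 498 promoters of detected genes and 4 over 1153 promoters of undetected ones. Their quartiles were 6 to 28 and 2 to 8. The median over all 32851 promoters of the table was 7. Median GC content was 58.3% in detected and 49.3% in undetected genes. The antisense class alone showed medians of 17 over 43 promoters of detected genes and 6 over 76 of undetected ones.

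The share of NR_ probes flagged well above background was lower on every MPE array than on every vehicle array. It was 32.2%, 33.2% and 32.6% on vehicle replicates 1 to 3, with a mean of 32.7% ± 0.514 (SD, n = 3). It was 30.5%, 30.8%, 31.1% and 30.8% on MPE replicates 1 to 4, with a mean of 30.8% ± 0.266 (SD, n = 4). The groups did not overlap, and the difference of -1.87 percentage points had p = 0.029 in a two-sided exact permutation test over 35 splits, the smallest p this design allows. The other probes moved the same way, by -2.84 points (p = 0.029, same exact test). By the scanner's flag for a positive and significant signal the share was 51.9% ± 1.09 with vehicle (SD, n = 3) and 46.9% ± 0.736 with MPE (SD, n = 4), a difference of -4.96 points in the same direction (exact permutation p = 0.029).

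The direction turned when 1 threshold was set for all arrays. Each array has its own limit, and the lowest level flagged well above background lay between -4.73 and -4.61 on vehicle arrays and between -4.16 and -4.11 on MPE arrays. Levels here are log2 intensities relative to the array's 75th percentile. With 1 limit on this scale for all arrays the share was 30.0% ± 0.208 with vehicle (SD, n = 3) and 31.2% ± 0.260 with MPE (SD, n = 4), a difference of 1.18 points the other way (exact permutation p = 0.029). On the unscaled signal the difference was 2.08 points, again higher with MPE (exact permutation p = 0.029). Undetected NR_ probes had median levels of -6.86 to -6.74 on vehicle arrays and of -6.33 to -6.31 on MPE arrays, so the floor was higher on the MPE arrays. Detected ones had medians of -1.59 to -1.58 with vehicle and -1.63 to -1.53 with MPE, which overlap.

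**Figure D2:**
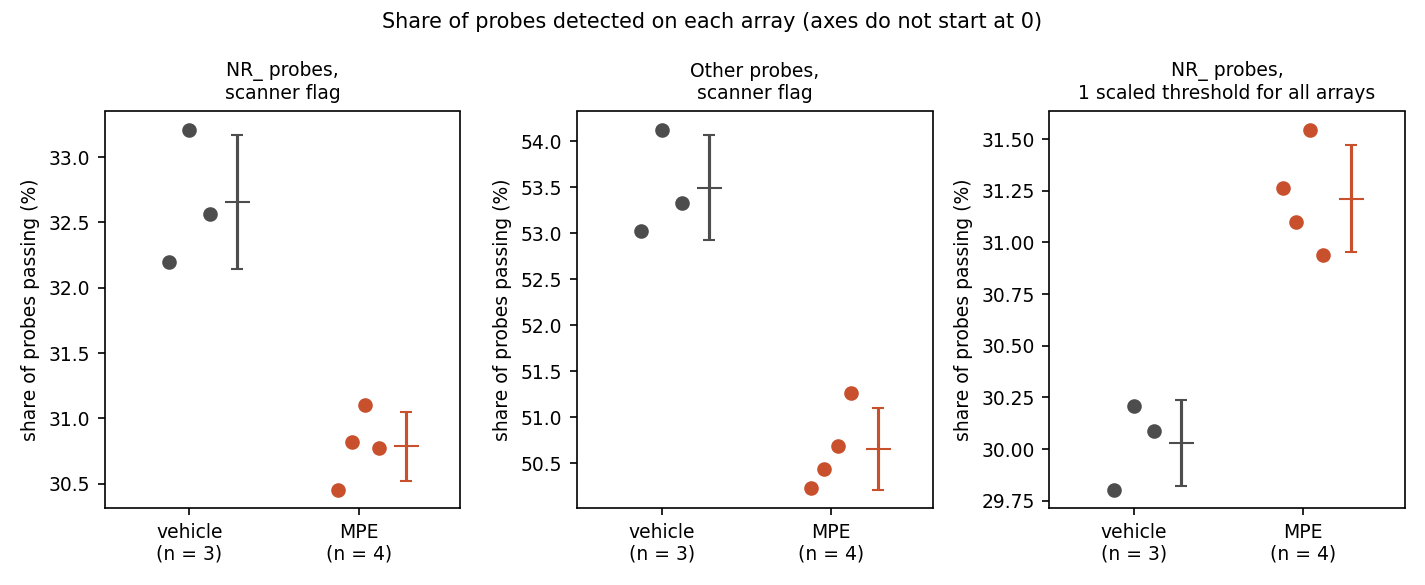
Each point is 1 array and bars are mean ± SD, for the share of NR_ probes flagged by the scanner (left), of other probes so flagged (middle), and of NR_ probes above 1 common scaled threshold (right). Vehicle lies above MPE in the first 2 panels, at 32.7% against 30.8% for NR_ probes, and below it in the last, at 30.0% against 31.2%.

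The brightest NR_ probes read ribosomal, structured and pseudogene transcripts. Signal also depends on the probe, so the list is one of signal and not of transcript abundance, and levels are not compared between probes. The 12 genes with the highest mean level were NR_003278, Gm10845, Gm5523, Gm12070, Rn4.5s, Gm8709, Rn28s1, Gm8580, 3000002C10Rik, Gm6498, Gm6981 and Gm20751, with means from 7.83 to 10.4. Of these, 7 are pseudogenes and 2 carry other provisional names. Rn28s1 is the large-subunit ribosomal RNA and Rn4.5s a short repetitive RNA of rodents. A pseudogene probe may read the parent gene's messenger RNA where the copies are nearly identical, so these signals are uncertain as to their source.

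NR_003278 stood at 10.64, 10.57 and 10.26 on the vehicle arrays and at 10.34, 10.28, 10.12 and 10.30 on the MPE arrays. Vehicle replicates 1 and 2 were higher than every MPE array, and vehicle replicate 3 fell among them. Rn28s1 showed the same arrangement, at 8.65, 8.62 and 8.20 with vehicle and 8.30, 8.50, 7.88 and 8.17 with MPE. Vehicle replicate 3 was the lowest vehicle array for 11 of the 12 genes, and MPE replicate 3 the lowest MPE array for 11 of the 12. The fitted differences of the 12 ran from -0.28 to -0.02 with a median of -0.10 on the log2 scale, and none passed the test (smallest unadjusted p = 0.067, adjusted p = 1.00 by limma). Their median was -0.0040 with quantile normalization, 0.02 after normexp background correction and -0.17 with median scaling. It was -0.17 without vehicle replicate 3, and -0.05 without vehicle replicate 1 or without MPE replicate 3.

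**Figure D3:**
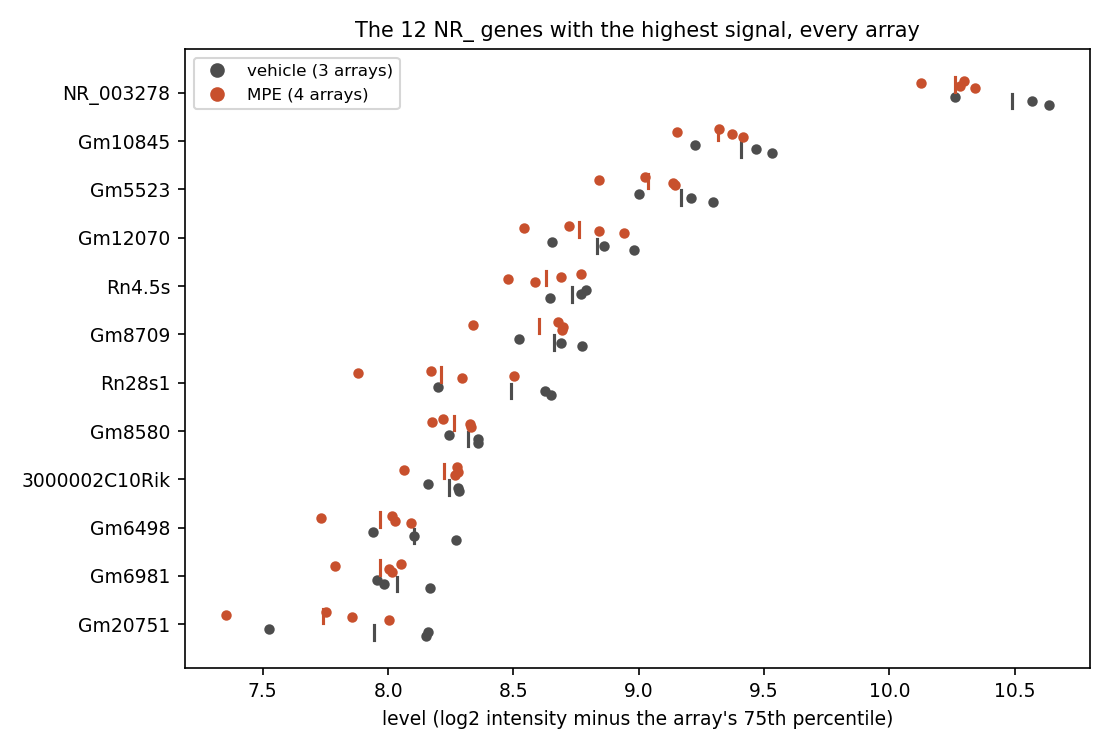
Each point is the level of 1 array (log2 intensity minus the array's 75th percentile) for the 12 NR_ genes of highest signal, with short lines at the group means. The groups overlap for each gene, and 1 low MPE array, replicate 3, recurs in 11 of them.

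The small nucleolar RNA host genes classed by name were almost all detected, and none passed the test. Snhg8 stood at 5.16, 5.09 and 5.14 with vehicle and at 5.16, 5.16, 5.24 and 5.01 with MPE. Snhg9 had means of 4.38 ± 0.12 (SD, n = 3) and 4.36 ± 0.04 (SD, n = 4). Snhg6, Snhg3 and Snhg15 had mean levels of 3.60, 3.24 and 3.05. Snhg4 was at -4.15, and Snhg18 was the 1 member not detected. The 15 tested probes had differences from -0.10 to 0.08 with a median of -0.01, and none had an unadjusted p under 0.05 (smallest 0.42). The interval of Snhg8 was 0.906 to 1.13 times vehicle (95%), so a change of the size of 1.5-fold lay outside it.

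Transcripts of many such hosts begin with a run of pyrimidines, a feature they share with ribosomal protein genes. A run of at least 6 letters C or T beginning with C within 3 bases of the start, on the gene's strand, was found in 4 of 12 promoters of this class (33.3%), and in 7.21% of all promoters in the table. The 3 detected members with such a run are shown with 10 bases before and 20 from the start (RefSeq, GRCm38.p6), the run in capitals.
Snhg12, chr4:132308668-132308697, plus strand: ttctcagtCCTTTCTCgcttcatccgcggt
Snhg7, chr2:26640225-26640254, minus strand: gatgctcggCCTCTCggcagccatggcggc
Snhg8, chr3:123508317-123508346, minus strand: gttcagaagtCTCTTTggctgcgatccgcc
Their mean levels were 1.14 for Snhg12, 2.07 for Snhg7 and 5.14 for Snhg8, and their differences were -0.04, -0.07 and 0.01.

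Hosts were also found by position rather than by name. A small nucleolar or related guide RNA gene lay inside the span of 44 NR_ genes, with strand not considered, and 29 of these (65.9%) were detected against 30.8% of all 2205 named NR_ genes. Among the 30 of them outside the Snhg class, 16 were detected. Among these, 2410006H16Rik, which encloses Snord49a, Snord49b and Snord65, had a level of 3.33. Taf1d, a coding gene with a non-coding transcript, encloses 6 such genes and stood at 0.26. Of the detected hosts 1 had an unadjusted p under 0.05, Ppp1r12b, given below.

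Most probes of the guide, spliceosomal and other structured RNAs were also detected. Rn7s1, a signal recognition particle RNA, stood at 5.80, 5.58 and 5.37 with vehicle and 5.55, 5.66, 5.47 and 5.55 with MPE. The U1 spliceosomal RNA probe Rnu1a1 had means of 3.38 ± 0.06 (SD, n = 3) and 3.36 ± 0.06 (SD, n = 4). Rnu1b6, Rnu1b1 and Snora73a had levels of 3.07, 2.82 and 2.19. Rn7sk, which restrains transcription elongation, was at 1.87, and the processing ribonuclease RNAs Rpph1 and Rmrp were at 0.96 and -0.07. Their 23 tested probes had differences from -0.26 to 0.20 with a median of -0.01, and none had an unadjusted p under 0.05. The smallest was that of Snord17, with a difference of -0.15 and an adjusted p of 1.00 by limma. The probes may also read unprocessed host transcripts that contain the same sequence.

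Terc, the RNA template of telomerase, was not detected. It stood at -4.67, -3.61 and -4.47 with vehicle and at -0.74, -4.02, -5.10 and -3.99 with MPE. A single array, MPE replicate 1, was far above the rest, and the probe lies in row 5 of 384 on the array.

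Among detected microRNA hosts, Etfb, a coding gene whose non-coding transcript spans Mir7051, was at 4.07, and D7Ertd143e at -2.78. Mir124-2hg, named as a host of the neuronal miR-124, had means of 1.96 ± 0.08 (SD, n = 3) and 1.92 ± 0.10 (SD, n = 4). Mirc35hg stood at -1.08, -1.40 and -1.39 with vehicle and -1.32, -1.48, -1.53 and -1.17 with MPE. Mir22hg stood at -0.99, -0.91 and -0.49 with vehicle and -0.82, -0.97, -0.22 and -0.60 with MPE, its highest value in each group being replicate 3. The groups of these hosts overlapped, except for D7Ertd143e, which is described in the next paragraph. The 10 detected hosts had differences from -0.42 to 0.16 with a median of 0.04. Hosts below the detection rule included Mir100hg, Mir9-3hg, Dnm3os and Ftx.

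D7Ertd143e, which encloses Mir291b, Mir292, Mir293, Mir294 and Mir295, was lower with MPE on every array. It stood at -2.54, -2.56 and -2.53 with vehicle and at -3.04, -2.96, -2.98 and -2.87 with MPE, and it was above background on all 7 arrays. The SD was 0.02 among vehicle arrays and 0.07 among MPE arrays. MPE was 0.749 times vehicle (95% interval 0.681 to 0.823), a log2 difference of -0.42 with a standard error of 0.06. The unadjusted p was 1.8e-04 and the adjusted p over all 28874 probes was 0.37 by limma, so the difference did not pass. With 1 array left out the difference lay between -0.45 and -0.39, and after normexp background correction it was -0.23. The adjusted p ran from 0.097 up to 1.00 over the alternatives that kept a filter on dim probes. It was 0.0011 without that filter.

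Among antisense transcripts, Igf2os overlaps the growth factor gene Igf2. It stood at 7.18, 7.12 and 6.83 with vehicle and at a mean of 6.92 ± 0.08 with MPE (SD, n = 4), and the groups overlapped. Fbxl12os had means of 4.05 ± 0.03 (SD, n = 3) and 4.02 ± 0.09 (SD, n = 4). Fam120aos, Rab26os and Lhx1os had levels of 3.87, 2.86 and 2.83. Several partners of beta-cell genes were present. Pax6os1, whose span overlaps the islet regulator Pax6, was at 1.23, and Pcsk2os1, opposite the prohormone convertase Pcsk2, at 0.83. Nkx2-2os, whose span overlaps the beta-cell factor Nkx2-2, was well above background on none of the arrays.

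A sense gene with a probe of its own was found for 144 of the 147 antisense genes by dropping the suffix of the symbol. The suffix was as, os or ot and strand was not checked, so some pairs may not be antisense. The spans of 107 pairs overlapped in the RefSeq table and 37 lay apart. Where the sense gene was detected, 43 of 104 antisense genes were too (41.3%), and where it was not, 5 of 40 (12.5%) were. Those 5 were Dlx6os2, Hmgb4os, Hoxb5os, Kank4os and Speer4cos. No test was made, since pairs on 1 set of arrays are not replicates.

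Neither partner differed detectably with MPE in the 43 pairs measured on both sides. Antisense differences ran from -0.31 to 1.12 and sense differences from -0.15 to 0.16, and no member of either had an unadjusted p under 0.05 by limma. The sign was the same in 23 of the 43 pairs, and the correlation of differences across pairs was r = -0.01 (Spearman 0.02), a description over pairs that share 7 arrays. Pcsk2os1 differed by 0.06 and Pcsk2 by -0.10. Pax6os1 differed by 0.07 and Pax6 by -0.03. Igf2os differed by -0.12 and Igf2 by -0.06. The antisense probe with the smallest p was Kank4os, which passed the detection rule through the vehicle arrays alone. Its adjusted p was 1.00 by limma, with a bound of at least 1.12-fold higher in vehicle.

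Of a list of 52 names of known long non-coding and structured RNAs, 32 had an NR_ probe and 19 were detected, each on all 7 arrays. Norad, which binds Pumilio proteins, had 4 probes with mean levels from -1.67 to 6.58. Lockd, beside the cell-cycle inhibitor gene Cdkn1b, was at 5.78. Dleu2 was at 0.89, Oip5os1 at 0.33, Firre, which shapes nuclear architecture, at 0.24, and Tug1 at -0.52. Jpx, an activator of Xist, was detected at -1.83, while Xist itself was not well above background on any of the 7. Paupar, beside Pax6, was at -1.72, and the Myc neighbour Pvt1 at -2.59 and -3.59 by its 2 probes. The genes not detected were Cdr1os, Dlx6os1, Ftx, Hottip, Miat, Mir99ahg, Nkx2-2os, Pantr1, Rmst, Sox2ot, Terc, Tunar and Xist.

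Neat1 had the largest standard error of the difference among these, 0.32. Its brighter probe stood at -0.27, -0.28 and -0.03 with vehicle and at -0.69, -0.57, 0.61 and 0.22 with MPE. The MPE arrays lay on both sides of the vehicle arrays. The 25 tested probes of the list had differences from -0.23 to 0.16 with a median of -0.02, 11 fitted higher and 14 lower. None had an unadjusted p under 0.05 (smallest 0.073), and the 95% interval lay within 1.5-fold both ways for 21 probes and within 2-fold for all 25.

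Probes of 1 gene often gave different signal. Of 50 genes with 2 or more tested probes, the median range of mean level within a gene was 1.59 and the largest, in Gm10845, was 11.7. The fitted differences of 21 of these genes had opposite signs in different probes.

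Across all classes no NR_ probe was called different with MPE. By limma with Benjamini-Hochberg adjustment over all 28874 probes tested, 0 of 769 tested NR_ probes were called higher or lower at 0.05, where 0.00346% of all tested probes were called higher and 0.00693% lower. At an unadjusted p under 0.05, 10 NR_ probes were higher (1.30%) and 34 lower (4.42%), against 0.81% higher and 3.34% lower of all probes. Of these, 6 higher and 24 lower were among the 662 measured above background on every array. The groups did not overlap for 8 NR_ probes higher and 35 lower, against 1.28% and 3.37% of all probes, which are near the members' 1.04% and 4.55%. The median difference was -0.02 over NR_ probes and -0.01 over all probes tested. The 95% interval lay within 1.5-fold both ways for 583 of 769 NR_ probes (75.8%) and within 2-fold for 714 (92.8%), against 81.7% and 94.7% of all probes. NR_ probes also varied a little more, with a median SD of 0.13 against 0.11 among vehicle arrays and of 0.16 against 0.12 among MPE arrays. The tested NR_ probes were dimmer, with a median level of -1.59 against -0.115 over all probes tested. The part of level in the spread and the intervals was not tested.

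**Figure D4:**
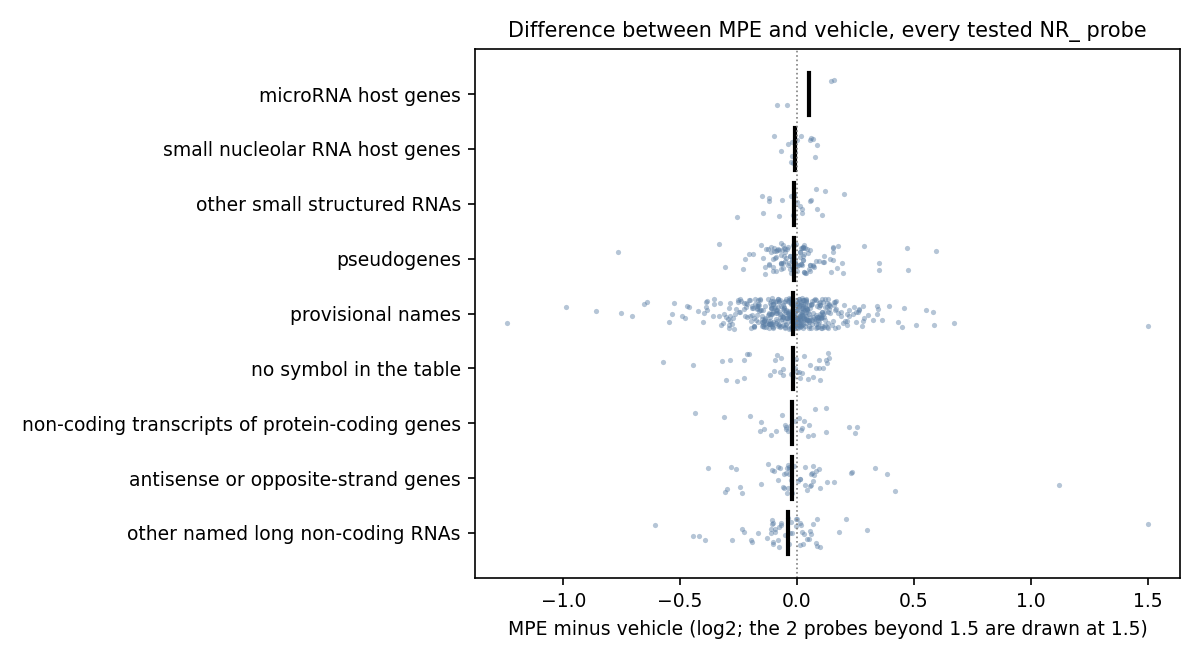
Each point is 1 of the 769 tested NR_ probes, placed by its fitted log2 difference (MPE minus vehicle) within its class, with a black line at the class median; the 2 probes beyond 1.5 are drawn at 1.5. Class medians lie between -0.04 and 0.05.

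The small p-values followed the position on the array. Of NR_ probes lower at an unadjusted p under 0.05, 24 lay in array rows 193 to 384 (6.45% of those tested there) and 10 in rows 1 to 192 (2.52%). Of those higher, 2 lay in rows 193 to 384 (0.538%) and 8 in rows 1 to 192 (2.02%). All probes showed the same arrangement, with 5.02% and 1.71% lower and 0.408% and 1.20% higher. The part of array position in these differences was not tested.

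The 8 lower NR_ probes of smallest p with groups that do not overlap were NR_040271, D7Ertd143e, Haglr, A730085K08Rik, Gm14379, 4930533B01Rik, AI646519 and Ppp1r12b. None passed the adjusted test, and the values are a description. NR_040271 stood at -4.04, -4.18 and -4.13 with vehicle and at -4.66, -4.77, -4.58 and -4.76 with MPE. It was well above background on the 3 vehicle arrays and on no MPE array, so it passed the detection rule through the group where it was high, and only a bound of at least 1.02-fold higher in vehicle is given (adjusted p = 0.30 by limma). A730085K08Rik entered in the same way, and its bound was at least 1.34-fold higher in vehicle (measured means -3.72 and -4.43, adjusted p = 0.96 by limma).

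The remaining lower probes were measured on all arrays. Haglr, a long non-coding RNA of the HoxD cluster, stood at -2.85, -3.27 and -3.10 with vehicle and at -3.53, -3.57, -3.50 and -3.48 with MPE. The MPE arrays were closer together than the vehicle arrays, and MPE was 0.735 times vehicle (95% interval 0.624 to 0.865, adjusted p = 0.96 by limma). After normexp its difference of -0.45 was -0.20. Ppp1r12b, a subunit gene of myosin phosphatase read here through a non-coding transcript, stood at -3.07, -2.92 and -3.15 with vehicle and at -3.70, -3.30, -3.37 and -3.56 with MPE, and its difference of -0.43 was -0.16 after normexp. The difference of 4930533B01Rik was -0.66, that of Gm14379 -0.32 and that of AI646519 -0.29, with adjusted p-values from 0.96 to 0.97 by limma. Of the 8 probes, 6 lay in array rows 193 to 384.

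The 8 higher NR_ probes were Wbscr25, Gm16845, Pdxk-ps, 4930488L21Rik, 1700097N02Rik, 1700084J12Rik, Gm10785 and NR_045766, each with an adjusted p of 1.00 by limma. The last 2 had an unadjusted p above 0.05. Gm16845 stood at -3.44, -3.65 and -3.66 with vehicle and at -3.05, -3.43, -3.11 and -3.32 with MPE. The lowest MPE value of Gm16845 lay just above its highest vehicle value. MPE was 1.28 times vehicle (95% interval 1.07 to 1.54), and its log2 difference of 0.36 was 0.10 after normexp. Of the 16 differences, lower and higher, 14 were smaller by over 1.5 times after normexp.

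Wbscr25 had the largest fitted difference. It stood at -6.81, -6.94 and -6.80 with vehicle and at -6.36, -1.94, -1.08 and -2.29 with MPE. It was well above background on 3 of the 4 MPE arrays and on no vehicle array, and MPE replicate 1 was not. With vehicle arrays set to their lowest levels flagged well above background, MPE was 3.34-fold higher (measured means -2.92 and -6.85, adjusted p = 1.00 by limma). The MPE mean includes replicate 1 at its measured value, so this is not a strict bound. For Wbscr25 the fitted difference of 3.93 was 0.98 after normexp. It passed the detection rule through MPE arrays alone, so it had to differ, and its p-values are given without being read as support. Without MPE replicate 1 its adjusted p was 0.023, where 0.0104% of all probes were called higher.

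The probe of Wbscr25 lies in array row 11. The next largest positive differences, Gm19510 at 1.73 (row 6) and Dnmt3aos at 1.12 (row 5), lie in nearby rows and were picked out after their values were seen. Gm19510 stood at -4.82, -4.09 and -4.05 with vehicle and -1.66, -4.68, -3.34 and -0.66 with MPE. In rows 1 to 12 the median SD of the 21 tested NR_ probes was 0.32 among MPE arrays and 0.11 among vehicle arrays. In rows 13 to 384 it was 0.16 and 0.14. The excess was smaller over all 990 probes tested in rows 1 to 12, at 0.15 among MPE and 0.11 among vehicle arrays. Over all probes tested in rows 13 to 384 it was 0.12 and 0.11. The rows were chosen after the values were seen, and their part in the result was not tested.

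**Figure D5:**
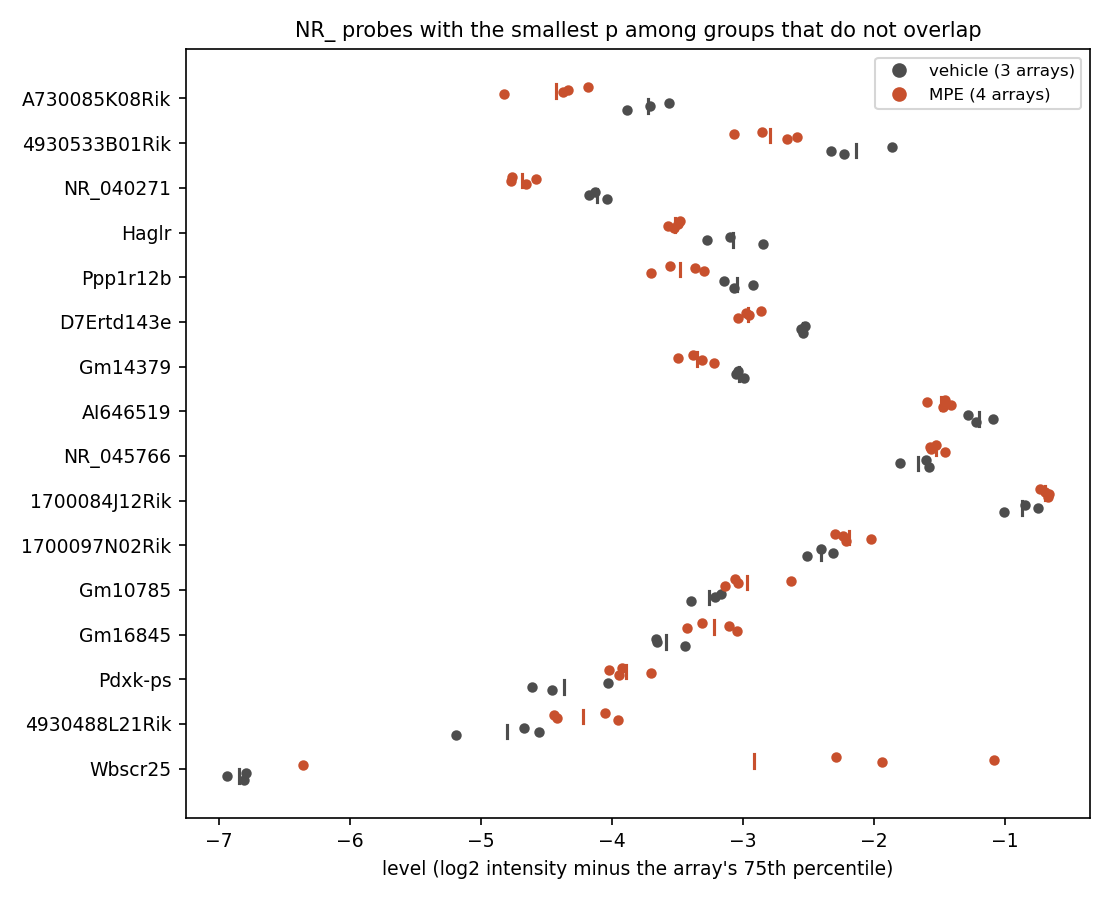
Each point is the level of 1 array for the 16 NR_ probes with the smallest p among those whose groups do not overlap, 8 lower (top) and 8 higher (bottom) with MPE, with short lines at the group means. D7Ertd143e has the tightest vehicle group (SD 0.02), and Wbscr25 has 3 high MPE arrays and 1 near the vehicle arrays.

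Without a filter on dim probes the picture was another one. Of 2450 NR_ probes then tested, 794 were called higher (32.4%) and 24 lower (0.98%) at an adjusted p under 0.05 by limma, where 20.4% and 0.714% of all probes were. The added probes were those well above background on fewer than 3 arrays, whose median level was higher on each MPE array, as given above; its part in these calls was not tested.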

How the data were processed

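RNA of MIN6 cells (100 ng) was labelled with Cy3 and hybridized to 1-colour Agilent arrays, per the labels' protocols. The deposited processed intensity was background-subtracted and detrended, per the file headers, which name Feature Extraction 11.5.1.1 where the submitters' processing notes name 10.5.1.1. The authors' deposited value table holds log2 values.

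Control and outlier-flagged spots were left out, and a probe's level was the mean log2 intensity of its spots minus its array's 75th percentile. Probes well above background on 3 or more arrays with a value on every array were tested with limma 3.58.1 (R 4.3.3), with Benjamini-Hochberg adjustment at 0.05 over all 28874. Shares were compared by exact permutation. Symbols, spans and sequences came from RefSeq tables (GRCm38.p6). The mean spot signal planned for normexp was not used here, and the median signal replaced it. On data simulated for the comparison of MPE with vehicle with 28874 probes, 51.6% of 1.5-fold, 74.9% of 2-fold and 93.5% of 4-fold changes were called. The simulation drew independent normal errors for all tested probes, and no rate was computed for the NR_ probes alone. The members and lists were chosen with earlier results of these data known. Named probes were the 12 brightest genes, any called probe, the 8 smallest p-values per direction among groups that do not overlap, the list of known RNAs, and 2 bright genes and the smallest p of each class; others were chosen after their values were seen. The number of arrays limits the precision. Not every listed marker of other islet cells is reported here.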

Additional observations from a re-analysis of the deposited data

Results flagged for a closer look

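In 68 groups of MPE arrays checked, 3 had 1 array far from the other 3. Chance gives about 1 in 20, or 3.4 groups, so the number flagged is no more than that. Each time the array far from the others was MPE replicate 3. It read 8.06 for 3000002C10Rik (the others 8.27 to 8.28) and 8.34 for Gm8709 (the others 8.68 to 8.70), both pseudogenes and below the others. It read 1.37 for Pax6os1, above the others at 1.21 to 1.23.

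Below the detection rule, 172 NR_ probes were well above background on 1 or 2 MPE arrays and on no vehicle array, and 109 on vehicle arrays alone. Of the first, 158 lay in array rows 1 to 192 and 14 in rows 193 to 384. Of the second, 35 and 74 did. The same counts were not made over all probes, so neither the counts nor their rows are shown to be particular to NR_ probes.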

How the results depend on the processing

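No NR_ probe was called under any alternative except 818 without a filter on dim probes and 1 without MPE replicate 1 (0 to 1 with each array left out). At an unadjusted p under 0.05, 10 probes were higher, but 4 with median scaling, 3 with quantile normalization, 914 without a filter, 3 in the authors' value table, 2 with trended robust variance, 21 with slide column as block and 19 with array weights. The 34 lower became 58 with median scaling and 62 without a filter. Shares over all probes at an unadjusted p were computed for the main fit alone. The counts under the alternatives are therefore not shown to be particular to NR_ probes. The median difference of -0.02 became -0.085 with median scaling and 0.33 without a filter. The labels do not say whether replicate numbers pair the arrays. Deviations from the group means correlated at 0.24, 0.05 and 0.40 between same-numbered vehicle and MPE arrays. Between arrays of different numbers they correlated at -0.33 to 0.29, so pairing is not settled. With the replicate number as a block 18 were higher and 62 lower. The difference in detected share was 1.18 points with 1 scaled threshold and 2.08 with 1 unscaled threshold, both reversed, and -4.96 by the flag for positive and significant signal. With each array left out it ran from -2.10 to -1.59, where the smallest exact permutation p possible is 0.067 or 0.10. Detected probes, 771, were 1064 on 1 or more arrays and 662 on all 7. The 8 probes of smallest p per direction were chosen for groups that do not overlap, which fixes their direction when an array is left out, so it is no sign of stability. After normexp 14 of these 16 differences were smaller by over 1.5 times. Dim probes carry only a bound, and that of Wbscr25 is not a strict one.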
